A study of Mus musculus with 28 samples.

Results

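The change of the cartilage response to joint destabilisation between 1 and 6 weeks was taken as a single quantity, the interaction of surgery and time: the difference between DMM and sham at 6 weeks minus the same difference at 1 week. Its members were the 12 cartilage arrays among the 28 arrays of the study, chosen by their source label, and the interaction was computed for the 438 mouse miRNAs, of 569 in the deposited table, that had a value on all 12. DMM is destabilisation of the medial meniscus, in which the medial menisco-tibial ligament is cut so that the mouse knee slowly becomes osteoarthritic; in the sham operation the ligament was exposed and left whole. All mice were male wild-type C57BL6, operated on both knees at 10 to 12 weeks of age. The 4 cartilage groups were sham at 1 week, DMM at 1 week, sham at 6 weeks and DMM at 6 weeks after surgery, with 3 arrays each, and each array held cartilage pooled from 3 mice. The tissue came from the medial tibial side of decalcified 10 µm sections by laser microdissection, and 70 ng of RNA was labelled for a 1-colour miRNA array. The 16 subchondral bone arrays, 4 single mice in each of the same 4 groups, served for comparison.

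One label of the cartilage samples named subchondral bone as the tissue while their source label named cartilage, so the tissue was checked against miRNAs enriched in chondrocytes. On the log2 scale miR-140-3p lay between 13.1 and 13.7 on the cartilage arrays and between 8.94 and 9.98 on the bone arrays. The ranges of miR-140-5p (11.6 to 12.2 against 7.51 to 9.76) and miR-455-3p (8.18 to 9.07 against 5.03 to 6.36) were also apart, with cartilage higher. Array medians of the cartilage set lay between 6.26 and 6.32, and arrays of the same group correlated at 0.967 to 0.993 across miRNAs. No cartilage pool is tied to particular mice, so p-values measure the spread between pools.

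MicroRNAs are short RNAs that pair with messenger RNAs, mainly through bases 2 to 8 (the seed), and lower the translation and stability of those messengers. In articular cartilage, the layer of chondrocytes and matrix that covers the bone ends, miR-140 is needed for normal matrix balance, and many other miRNAs shift when the joint is injured. A DMM effect can persist, fade or appear late. A persistent effect was defined as one past an adjusted p of 0.05 at both weeks in the same direction with the interaction not past it. A fading or late effect needed the interaction itself to pass, and a candidate was one whose interaction had an unadjusted p under 0.05 only.

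The sequences of 9 of the 11 candidates for a fading or late effect are shown, since the account of change between weeks turns on them, with the seed in capitals, 5′ to 3′, as listed by RefSeq for GRCm38.p6. The other two candidates, miR-5099 and miR-3960, are given by name and values only. miR-222-3p (chrX:19146901-19146923, minus strand) and miR-221-3p (chrX:19146307-19146329, minus strand) are neighbours that share a seed; miR-221-3p is shown for that reason, chosen after its values were seen. miR-6931-5p (chr11:102999896-102999916, minus), miR-5126 (chr1:84695890-84695911, plus), miR-1224-5p (chr16:20604452-20604472, plus) and miR-8110 (chr8:89024791-89024811, plus) were higher after DMM at 1 week, and miR-181a-1-3p (chr1:137966508-137966529, plus) was lower. miR-129-2-3p (chr2:94241376-94241397, minus), miR-451a (chr11:78073186-78073207, plus) and miR-223-3p (chrX:96242884-96242905, plus) were lower after DMM at 6 weeks.
miR-222-3p: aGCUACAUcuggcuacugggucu
miR-221-3p: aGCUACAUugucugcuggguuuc
miR-6931-5p: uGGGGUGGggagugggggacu
miR-5126: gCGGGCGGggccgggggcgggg
miR-1224-5p: gUGAGGACuggggagguggag
miR-8110: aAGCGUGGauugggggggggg
miR-181a-1-3p: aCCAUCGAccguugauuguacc
miR-129-2-3p: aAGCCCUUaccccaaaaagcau
miR-451a: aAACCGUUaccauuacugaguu
miR-223-3p: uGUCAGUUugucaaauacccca

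Several miRNAs with the largest effects at both weeks are shown next, since their sequences have a repeated stretch in common. The largest persistent rise, miR-6931-5p, does not hold that stretch. miR-411-3p and miR-379-3p, which share a seed, stand for the persistent falls. miR-206-3p, which also holds the stretch, stands for equal effects at both weeks. The stretch UGUGUG, searched on the mature strand, was in 12 of the 364 measured miRNAs with a sequence (3.3%); over the persistent rises no share is given as a result, since only 63.4% of them had a sequence. Their positions are chr5:82798964-82798986 (miR-1187, minus), chr17:25831406-25831427 (miR-3082-5p, minus), chr5:64970328-64970350 (miR-574-5p, plus), chr4:56895232-56895252 (miR-32-3p, minus), chr12:109710225-109710246 (miR-411-3p, plus), chr12:109709102-109709123 (miR-379-3p, plus) and chr1:20679055-20679076 (miR-206-3p, plus).
miR-1187: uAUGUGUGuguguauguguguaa
miR-3082-5p: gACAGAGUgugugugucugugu
miR-574-5p: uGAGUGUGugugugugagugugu
miR-32-3p: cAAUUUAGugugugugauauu
miR-411-3p: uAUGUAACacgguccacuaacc
miR-379-3p: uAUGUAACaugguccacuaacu
miR-206-3p: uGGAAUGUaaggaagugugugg

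No miRNA passed the test of the change between weeks. The count was 0 of 438 (0%) by limma with Benjamini-Hochberg adjustment. 13 miRNAs (2.97%) had an unadjusted interaction p under 0.05, 3 of them positive and 10 negative, and the smallest adjusted p was 0.0565, for miR-5099. If no miRNA changed, a share of 0.05 would on average have such a p, so the 13 are fewer than that. The candidates described below come from these 13. At the single weeks many miRNAs differed between DMM and sham: 122 (27.9%) at 1 week, 69 higher (15.8%) and 53 lower (12.1%), and 74 (16.9%) at 6 weeks, 42 higher (9.59%) and 32 lower (7.31%). After quantile normalization 60 were higher and 75 lower at 1 week, and after centring each array on its 75th percentile 56 were higher and 86 lower, so the balance of directions at 1 week moved with the scaling. The counts also rested on single arrays. At 1 week 42 passed when DMM replicate 3 of that week was left out, and 56 when its sham replicate 3 was. At 6 weeks 20, 44, 27, 31 and 166 passed without, in that order, DMM replicate 2, DMM replicate 1, sham replicate 2, sham replicate 3 and sham replicate 1 of that week. A call at one week and none at the other does not by itself show a difference between the weeks. With 3 arrays a group the median 95% interval of the interaction reached 0.426 either side of its value on the log2 scale (0.252 to 1.85 over the 438), so changes of the effect smaller than that were mostly not detectable. These intervals are not adjusted for the number of miRNAs, and passing the adjusted threshold took a larger change. The interaction of miR-5099, at 1.06, did not pass it. For 241 of the 438 the whole interval lay within a 1.5-fold change either way (0.585 on the log2 scale), and for the other miRNAs the interval reached past such a change. In these bulk samples fewer cells of a type and less RNA per cell cannot be told apart.

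Across all miRNAs the effects at 6 weeks followed those at 1 week. The 2 sets of effects share no array, and their correlation was 0.877 over the 438 miRNAs (0.852 over the 420 whose effects were under 1 at both weeks); miRNAs are not independent replicates, and this is a description. The sign was the same for 380 of 438. The slope of the 6-week effect on the 1-week effect was 0.792. It was 0.677 without DMM replicate 2 at 6 weeks and 0.955 without sham replicate 1 at 6 weeks, so single 6-week arrays moved the slope. Noise in the 1-week effects also lowers such a slope, so it does not measure how much smaller the later effects were. The SD of the effects over the 438 miRNAs was 0.448 at 1 week and 0.404 at 6 weeks.

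**Figure D1:**
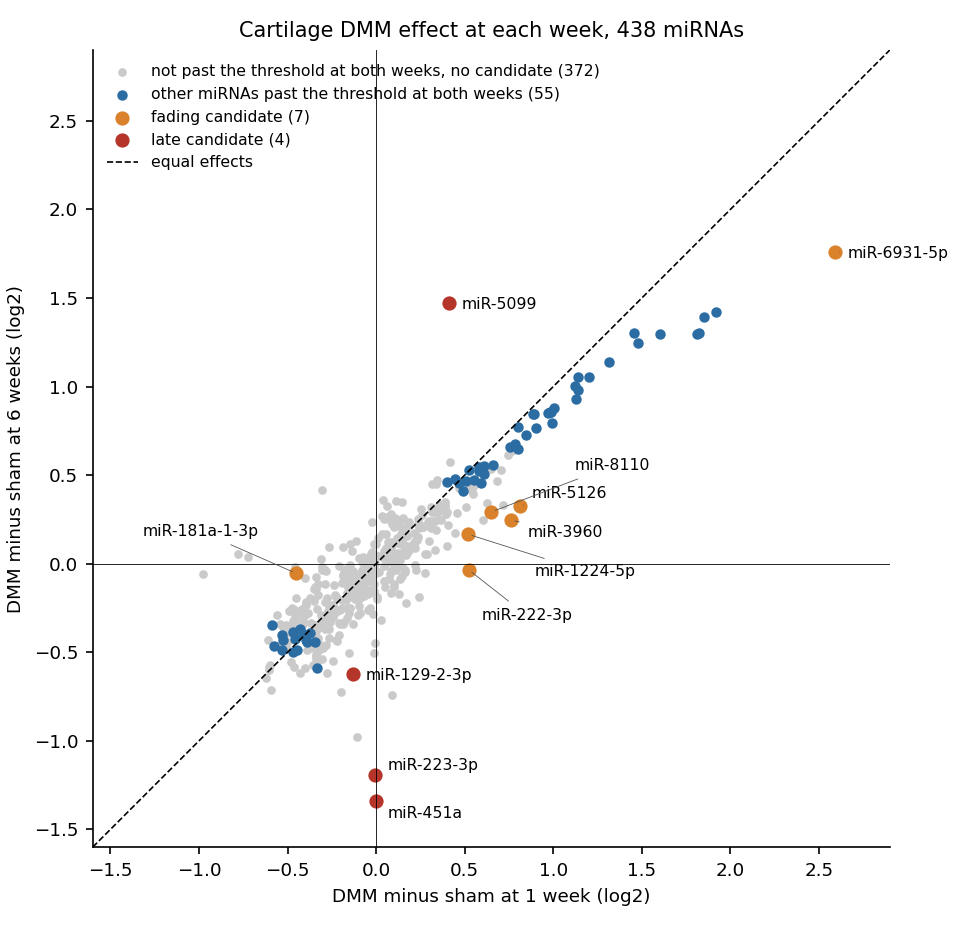
Each point is 1 of 438 miRNAs, with its DMM minus sham difference (log2) at 1 week on the x axis and at 6 weeks on the y axis; the dashed line marks equal effects. miR-5099 stands above the line (0.41 and 1.47), miR-451a and miR-223-3p below it near an x of 0, and miR-6931-5p at 2.59 and 1.76.

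57 miRNAs (13%) were past the threshold at both weeks, 41 higher and 16 lower, and 0 had opposite directions. Of these, 2 (miR-5099 and miR-6931-5p) were also candidates for a change between weeks. The sham and DMM arrays did not overlap at either week for 56 of the 57, miR-6904-5p at 6 weeks being the exception; over all 438 this held, in the same direction, for 27.2%, and the groups were apart for 48.2% at 1 week and for 35.4% at 6 weeks. The interaction interval lay within 1.5-fold for 15 of the 41 that were higher and for 15 of the 16 that were lower. The mean effects of the 16, -0.52 to -0.38, were smaller in size than that bound (0.585 on the log2 scale). An interval within the bound thus does not show that a fall kept its size. The number of persistent miRNAs rested on single arrays: it was 15 higher and 0 lower without DMM replicate 2 at 6 weeks, 22 and 0 without sham replicate 2 at 6 weeks, 21 and 4 without sham replicate 3 at 6 weeks, 27 and 3 without DMM replicate 3 at 1 week, and 61 and 42 without sham replicate 1 at 6 weeks. The persistent falls were also few without sham replicates 1, 2 and 3 at 1 week (6, 10 and 2), DMM replicate 2 at 1 week (10) and DMM replicate 1 at 6 weeks (6). The split between higher and lower moved with the scaling, from 41 and 16 to 37 and 24 with quantile normalization and to 34 and 27 after centring each array on its 75th percentile.

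The mean effect over both weeks passed for 198 of the 438 miRNAs (45.2%), and it ranked the persistent ones. The largest persistent rises were miR-6931-5p, miR-1187, miR-3082-5p, miR-574-5p, miR-466i-5p, miR-669n, miR-32-3p, miR-468-3p, miR-669l-5p, miR-466m-5p, miR-669e-5p and miR-672-5p. miR-1187 read 8.69, 8.91 and 8.76 in sham and 10.34, 10.74 and 11.04 in DMM at 1 week. At 6 weeks it read 9.31, 8.72 and 8.77 in sham and 10.38, 10.76 and 9.94 in DMM. Every DMM pool was above every sham pool at both weeks, and the difference was 1.92 at 1 week and 1.42 at 6 weeks. miR-574-5p, whose sequence is mostly a repeat of U and G, read 9.66, 9.85 and 9.76 in sham and 11.25, 11.63 and 11.85 in DMM at 1 week, a difference of 1.82. At 6 weeks its sham arrays read 10.22, 9.77 and 9.86 and its DMM arrays 11.32, 11.61 and 10.83, a difference of 1.30. The groups were again apart, with a DMM pool lower than the other 2 at 6 weeks, as for miR-1187.

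All 12 of these rises were smaller at 6 weeks, with interactions from -0.83 to -0.09, and 38 of the 41 persistent rises were smaller at 6 weeks (37 of 41 with quantile normalization and 31 of 41 with 75th percentile centring). For comparison, 264 of all 438 interactions were negative (221 with quantile normalization). The effects were 1.85 and 1.39 for miR-3082-5p, 1.81 and 1.30 for miR-466i-5p and 1.60 and 1.30 for miR-669n. The median ratio of the 6-week to the 1-week effect was 0.869, and the median interaction of the 41 was -0.12 against -0.04 over all 438. Of the 12, miR-6931-5p alone had an interval that left out 0. For miR-32-3p, miR-669l-5p, miR-466m-5p, miR-669e-5p and miR-672-5p the sign of the interaction turned when DMM replicate 3 at 1 week or sham replicate 1 at 6 weeks was left out. Without sham replicate 1 at 6 weeks, miR-32-3p gave 0.11, miR-669l-5p 0.03, miR-466m-5p 0.07, miR-669e-5p 0.10 and miR-672-5p 0.09. Without DMM replicate 3 at 1 week these were 0.07, 0.0005, 0.02, 0.08 and 0.11, and miR-669e-5p also turned, to 0.02, without DMM replicate 3 at 6 weeks.

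The persistent falls were smaller in size. The 16 had mean effects over both weeks between -0.52 and -0.38, with a median interaction of 0.02 and a median ratio of 0.945. Many were dimmer than the median level of 6.25, such as miR-411-3p, miR-379-3p and miR-376c-3p. With rows below that level left out, 4 persistent falls and 23 persistent rises remained. Whether a low level limits the size of a fall was not tested. miR-411-3p read 6.11, 6.01 and 6.29 in sham and 5.51, 5.78 and 5.40 in DMM at 1 week, a difference of -0.58. Its 6-week arrays read 6.12, 6.27 and 5.97 in sham and 5.83, 5.40 and 5.75 in DMM, a difference of -0.46. The same-seed miR-379-3p fell by 0.53 and 0.43, and miR-376c-3p by 0.53 and 0.40; all 3 lie in the imprinted Dlk1-Dio3 region, where the miRNAs come from the maternal allele. miR-196b-5p, from a Hox cluster, had the fall that was most reduced among the 12 largest (-0.59 and -0.34, interaction 0.25). miR-210-3p, a known target of the hypoxia response, had the fall that was most enlarged (-0.33 and -0.59, interaction -0.25, 95% interval -0.61 to 0.10), though its interaction was 0.04 after quantile normalization.

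miR-210-3p read 10.14, 10.06 and 10.21 in sham and 9.89, 9.86 and 9.65 in DMM at 1 week. Its 6-week arrays read 10.22, 10.31 and 10.45 in sham and 9.86, 9.80 and 9.56 in DMM. The groups were apart at both weeks, and the DMM pools lay at about the same level at each. The persistent effects closest in size between weeks included miR-128-3p (interaction -0.02, 95% interval -0.33 to 0.30), miR-151-5p (-0.40 and -0.43) and miR-206-3p. On every array miR-128-3p and miR-206-3p were dimmer than the median level of 6.25, and miR-151-5p was brighter. Whether a low level limits the size of such effects was not tested. miR-206-3p, a muscle miRNA, read 5.41, 5.40 and 5.55 in sham and 5.73, 6.08 and 6.14 in DMM at 1 week. At 6 weeks it read 5.35, 5.22 and 5.13 in sham and 5.67, 5.94 and 5.66 in DMM, and the difference was 0.53 at each week (interaction -0.0003, 95% interval -0.39 to 0.39).

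**Figure D2:**
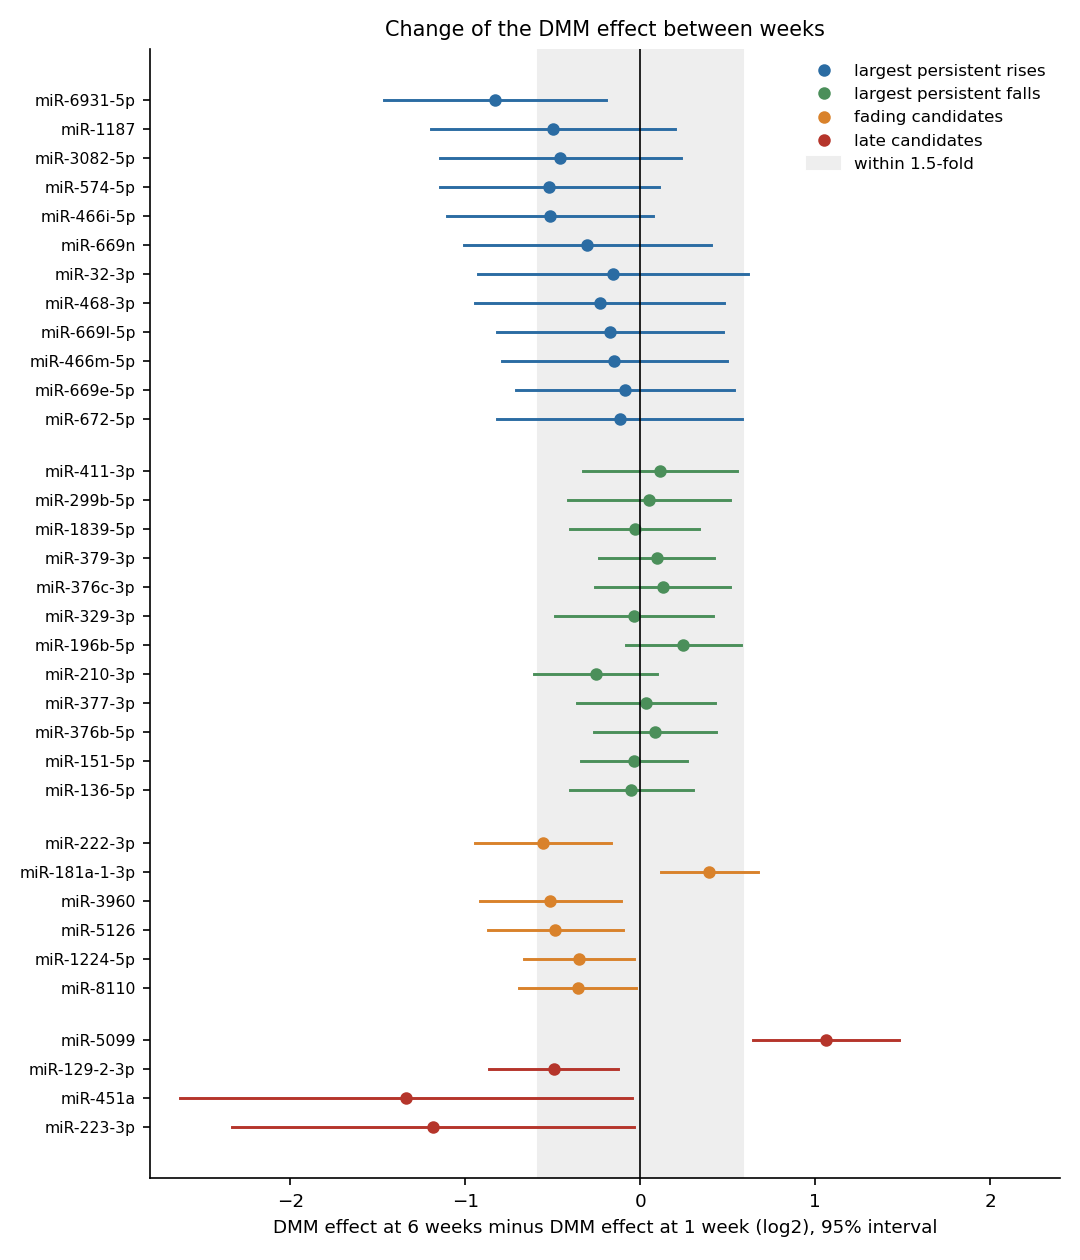
The interaction (DMM effect at 6 weeks minus at 1 week, log2) is drawn as a point with its 95% interval for the 12 largest persistent rises, the 12 largest persistent falls and the candidates; the shaded band marks a 1.5-fold change either way. The falls sit close to 0 with narrow intervals, the rises lie left of 0, and miR-5099 is the point farthest right at 1.06.

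The fading candidates were 7 miRNAs (1.6%), given as not passing: miR-222-3p, miR-181a-1-3p, miR-6931-5p, miR-3960, miR-5126, miR-1224-5p and miR-8110. At 6 weeks miR-6931-5p was past the threshold and the other 6 were not. The list held 11 miRNAs without DMM replicate 2 at 6 weeks. miR-222-3p, which with miR-221-3p restrains the cell cycle inhibitor p27, read 6.27, 6.00 and 6.19 in sham and 6.91, 6.54 and 6.57 in DMM at 1 week. At 6 weeks it read 6.00, 5.84 and 5.89 in sham and 5.87, 6.02 and 5.75 in DMM. The groups were apart at 1 week and overlapped at 6 weeks. The effect was 0.52 (adjusted p = 0.0107) at 1 week and -0.03 at 6 weeks, and the interaction was -0.56 ± 0.18 (SE; unadjusted p = 0.0088). The DMM pools changed by -0.79 between weeks (adjusted p = 0.0043) and the sham pools by -0.24.

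miR-221-3p, with the same seed, had an interaction of the same sign (-0.43 ± 0.19 SE, unadjusted p = 0.0410). Its arrays read 7.23, 7.00 and 7.13 in sham and 7.63, 7.08 and 7.38 in DMM at 1 week, and 7.18, 7.09 and 7.08 in sham and 6.83, 7.04 and 6.91 in DMM at 6 weeks. The sham arrays stayed near 7.1 at both weeks, and the DMM arrays overlapped them at 1 week and lay below them at 6 weeks. Neither week passed for it (0.24 and -0.19).

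miR-181a-1-3p, the opposite arm of miR-181a, was the fading candidate that fell. It read 5.99, 5.98 and 6.01 in sham and 5.49, 5.68 and 5.46 in DMM at 1 week, a difference of -0.45 (adjusted p = 0.0046). At 6 weeks it read 5.80, 5.83 and 5.81 in sham and 5.70, 5.79 and 5.79 in DMM, a difference of -0.05. The sham pools moved down by 0.18 and the DMM pools up by 0.22, so both parts entered its interaction of 0.40 ± 0.13 (SE).

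miR-6931-5p had the largest rise of all at 1 week. It read 8.42, 8.69 and 8.52 in sham and 10.92, 11.45 and 11.03 in DMM at 1 week, and 8.09, 8.60 and 7.88 in sham and 10.20, 10.03 and 9.61 in DMM at 6 weeks. The DMM pools were far above sham at both weeks, by 6.03-fold at 1 week and 3.39-fold at 6 weeks. The interaction was -0.83 ± 0.29 (SE, 95% interval -1.47 to -0.20), and the DMM pools fell by 1.19 between weeks (adjusted p = 0.0066) while the sham pools moved by -0.36.

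miR-3960, miR-5126 and miR-8110 had alike patterns: a rise at 1 week with no overlap between groups, and a smaller difference at 6 weeks. The groups were still apart at 6 weeks, narrowly, for miR-5126 (10.18 against 10.20) and miR-8110 (9.65 against 9.70). For miR-3960 they overlapped at 6 weeks. miR-5126 read 9.79, 9.90 and 9.65 in sham and 10.66, 10.52 and 10.59 in DMM at 1 week, and 10.06, 9.82 and 10.18 in sham and 10.28, 10.56 and 10.20 in DMM at 6 weeks. Its effects were 0.81 and 0.32 (interaction -0.49). After quantile normalization its effect at 1 week was 0.57 and its interaction -0.26. The effects of miR-3960, which has been tied to osteoblast differentiation, were 0.76 and 0.25 (interaction -0.51), and those of miR-8110 were 0.65 and 0.29 (interaction -0.36). The miR-8110 values depended on the scaling: after quantile normalization its effect at 1 week was 0.37, still past the threshold, and its interaction -0.05, so that little of the change between weeks was left. For miR-8110 the sham change of 0.19 was larger than the DMM change of -0.16.

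miR-1224-5p read 8.94, 8.84 and 9.00 in sham and 9.51, 9.44 and 9.40 in DMM at 1 week, and 8.69, 8.65 and 8.57 in sham and 8.88, 8.91 and 8.62 in DMM at 6 weeks. Its effects were 0.52 and 0.17 and its interaction -0.35, but under quantile normalization the effect at 1 week lost its call (0.21, adjusted p = 0.174) and the interaction was 0.009. Of the 6 fading candidates that rose at 1 week, 5 had a sequence, and 4 of these 5 (80%) held the letters GGGG, which were found in 21.7% of the 364 measured miRNAs with a sequence. Only the mature strand was searched. The median GC content of those 5 was 71.4% against 54.5% over the 364. The match is a description of letters, and its part in the result was not tested.

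**Figure D3:**
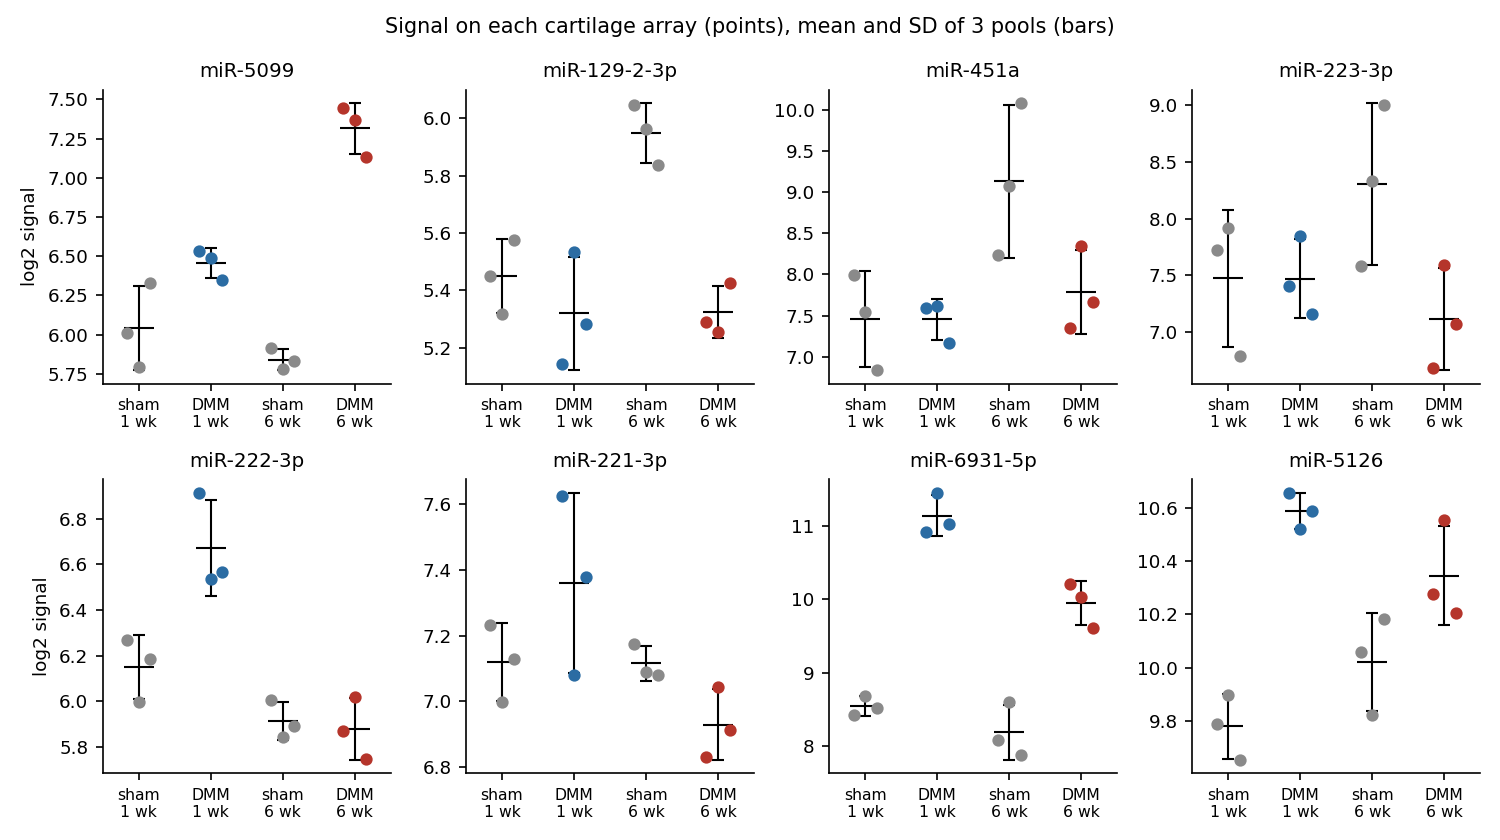
Log2 signal on each of the 12 cartilage arrays for the 4 late candidates, miR-222-3p, miR-221-3p, miR-6931-5p and miR-5126, by group (sham and DMM at 1 and 6 weeks, 3 pools each), with the mean and SD of each group as bars; each panel has its own y axis. For miR-222-3p the DMM points stand above sham at 1 week and among the sham points at 6 weeks; for miR-5099 they stand highest at 6 weeks.

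The late candidates were 4 miRNAs (0.913%), also given as not passing: miR-5099, which was higher, and miR-129-2-3p, miR-451a and miR-223-3p, which were lower. The list held 12 miRNAs without sham replicate 1 at 6 weeks, 1 without sham replicate 2 at 1 week, 2 in each of 7 other fits that left out an array, and 3 without DMM replicate 3 at 6 weeks, DMM replicate 1 at 1 week or sham replicate 3 at 1 week. miR-5099 read 6.01, 5.80 and 6.33 in sham and 6.54, 6.49 and 6.35 in DMM at 1 week, and 5.91, 5.78 and 5.83 in sham and 7.44, 7.37 and 7.13 in DMM at 6 weeks. The groups were apart at both weeks, narrowly at 1 week (6.33 against 6.35) and widely at 6 weeks. The effect was 0.41 (adjusted p = 0.042) at 1 week and 1.47 (adjusted p = 6.30e-05) at 6 weeks. Its interaction was 1.06 ± 0.19 (SE, 95% interval 0.64 to 1.48), so the ratio of DMM to sham was 2.09-fold larger at 6 weeks, with an unadjusted p of 1.29e-04.

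The sham pools of miR-5099 moved by -0.20 and the DMM pools rose by 0.86 (adjusted p = 0.0043). The interaction lay between 0.92 and 1.19 with each cartilage array left out in turn. Its call, however, depended on the setting. The adjusted p was under 0.05 after quantile normalization (0.0420), with array weights (0.0178), with the rows below the median level left out (0.0360), without DMM replicate 3 at 6 weeks (0.0455) and without sham replicate 2 at 1 week (0.0193). It was between 0.0565 and 0.225 in the fit of all arrays and in the other 10 fits that left out a cartilage array, 0.0624 with a trended prior, and 0.05004, just over the threshold, after 75th percentile centring. With the replicate number as a block it was 0.200.

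miR-129-2-3p read 5.45, 5.32 and 5.58 in sham and 5.14, 5.53 and 5.28 in DMM at 1 week, and 6.04, 5.96 and 5.84 in sham and 5.29, 5.26 and 5.43 in DMM at 6 weeks. The groups overlapped at 1 week and were apart at 6 weeks (-0.62, adjusted p = 0.0064), and the interaction was -0.49 ± 0.17 (SE). The sham pools were 0.50 higher at 6 weeks and the DMM pools were level (0.00), so the sham change was the larger part.

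miR-451a, a red blood cell miRNA, read 8.00, 7.54 and 6.84 in sham and 7.59, 7.61 and 7.17 in DMM at 1 week. At 6 weeks it read 8.23, 9.07 and 10.09 in sham and 7.35, 8.35 and 7.67 in DMM, and the groups overlapped. The effect was -1.34 at 6 weeks (adjusted p = 0.0465) and the interaction -1.34 ± 0.59 (SE, 95% interval -2.63 to -0.05). The sham pools were 1.67 higher at 6 than at 1 week and the DMM pools 0.33 higher.

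miR-223-3p, a miRNA of neutrophils and monocytes, read 7.72, 7.92 and 6.79 in sham and 7.41, 7.85 and 7.16 in DMM at 1 week, and 7.58, 8.34 and 9.01 in sham and 6.69, 7.59 and 7.08 in DMM at 6 weeks. The groups overlapped by 1 DMM pool at 6 weeks. Its effect at 6 weeks was -1.19 (adjusted p = 0.0465) and its interaction -1.19 ± 0.53 (SE). Without sham replicate 3 at 6 weeks the 6-week effects of miR-451a and miR-223-3p were -0.86 (adjusted p = 0.145) and -0.84 (adjusted p = 0.153), and both calls were lost in 10 of the 12 fits that left out an array. The interactions without that array were -0.86 and -0.84. Both 6-week calls were also lost on all 12 arrays after quantile normalization (adjusted p = 0.0645 for miR-451a and 0.0523 for miR-223-3p), with the trended robust prior (0.0557 for each) and with the replicate number as a block (0.0817 and 0.0560).

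The blood cell lists, to which both belong, had these values. Of the erythroid list 2 members were among the 438 (miR-451a and miR-486a-5p). Both were lower at 6 weeks, where 7.31% of all miRNAs were, and neither passed at 1 week. Their summed level ranged from 8.50 to 10.18 in sham and from 7.75 to 8.55 in DMM at 6 weeks, against 7.41 to 8.27 and 7.58 to 7.99 at 1 week. Of the leukocyte list 3 were among the 438; miR-223-3p and miR-342-3p passed at 6 weeks and miR-142a-3p (-0.98) did not. Their summed level ranged from 8.64 to 9.79 in sham and from 8.00 to 8.52 in DMM at 6 weeks, against 8.27 to 8.78 and 8.21 to 8.69 at 1 week. At 6 weeks the sham pools were above all DMM pools for the leukocyte sum and overlapped them for the erythroid sum. The part of blood cells in the cartilage samples in these results was not tested.

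**Figure D4:**
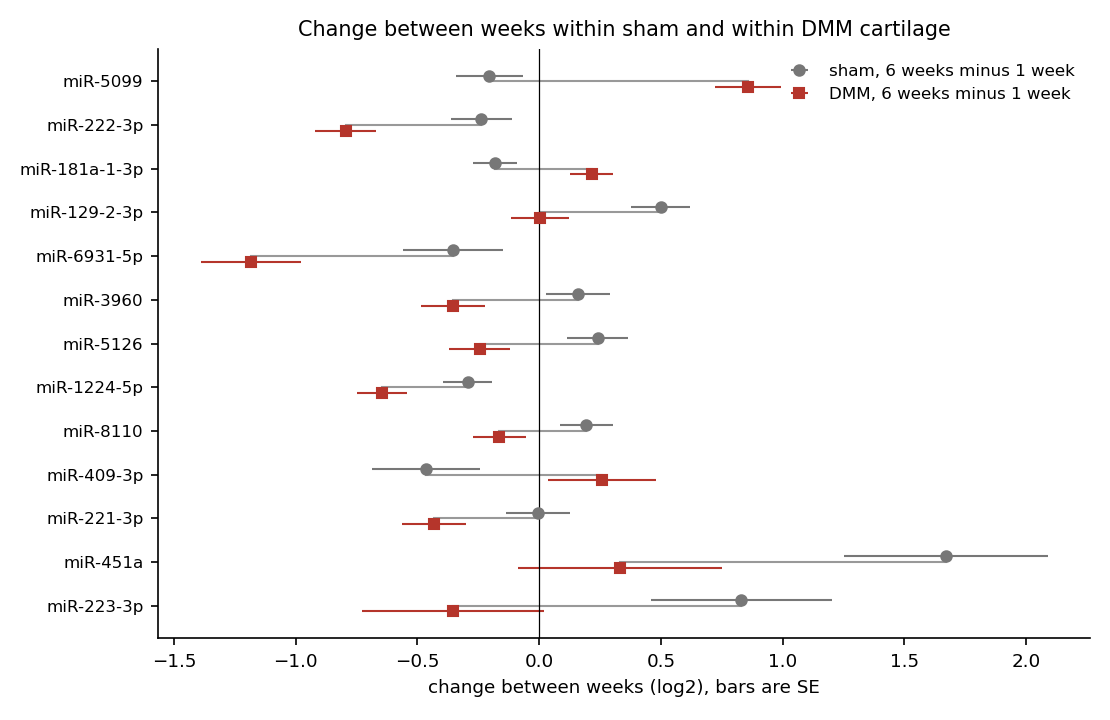
For the 13 miRNAs with an unadjusted interaction p under 0.05, the sham change and the DMM change from 1 to 6 weeks (log2) are drawn as points with SE bars, and the line between them is the interaction. The DMM part is the larger for miR-5099 (0.86 against -0.20) and miR-222-3p (-0.79 against -0.24), and the sham part for miR-451a (1.67 against 0.33) and miR-129-2-3p (0.50 against 0.00).

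Of the 13 miRNAs with an unadjusted interaction p under 0.05, the DMM change was the larger part in 8 and the sham change in 5 (miR-129-2-3p, miR-8110, miR-409-3p, miR-451a and miR-223-3p). Among the sham arrays 1 of 438 miRNAs (0.228%) changed between weeks past the threshold, miR-1957b (0.56 higher, named after its values were seen), and 77 (17.6%) had an unadjusted p under 0.05; 9 passed without sham replicate 1 at 6 weeks, 2 without DMM replicate 3 at 6 weeks, and 0 without any one sham array of 1 week, DMM replicate 3 at 1 week, DMM replicate 2 at 6 weeks or sham replicate 3 at 6 weeks. Among the DMM arrays 21 (4.79%) changed, 10 higher (2.28%) and 11 lower (2.51%). Quantile normalization gave 24 higher and 11 lower, and 75th percentile centring 23 and 11. The 21 fell to 6 and 8 without DMM replicates 3 and 2 at 6 weeks, to 7 without DMM replicate 2 or replicate 3 at 1 week, and to 10, 12 and 13 without sham replicate 2 at 1 week, DMM replicate 1 at 6 weeks and DMM replicate 1 at 1 week. The sham change had the same sign for 20 of these 21, with miR-5099 as the exception. miR-409-3p had an interaction of 0.72 (unadjusted p = 0.0401) with neither week past the threshold. Without sham replicate 1 at 1 week, which read 6.395 against 5.47 and 5.57 in the other two sham pools of that week, it was 0.43. miR-374c-5p and miR-149-5p, next among the positive interactions, were at 0.27 each.

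Of the 122 miRNAs past the threshold at 1 week, 65 were not past it at 6 weeks, 28 higher and 37 lower. Their effect had the same sign at 6 weeks for 64 of the 65, and the interaction p was 0.05 or more for 59 (13.5% of the 438), so these were not shown to fade. 17 miRNAs were past the threshold at 6 weeks and not at 1 week, 1 higher and 16 lower, and all 17 had the same sign at 1 week. For 14 of the 17 (3.2% of the 438) the interaction p was 0.05 or more. Among the 53 miRNAs lower at 1 week 46 had a smaller effect at 6 weeks, and among the 32 lower at 6 weeks 9 did; each count is over miRNAs chosen at that week, so neither is independent of the choice.

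Families and clusters are described by counts. The Sfmbt2 cluster and its relatives (miR-297, miR-466, miR-467 and miR-669), a rodent cluster within an intron of Sfmbt2, had 25 measured members, of which 15 were higher and 4 lower at 1 week, when 15.8% of all 438 were higher and 12.1% lower. At 6 weeks 15 were higher and 0 lower, when 9.59% and 7.31% of all were. The 4 lower members are thus near the share over all miRNAs. The median effect was 0.85 and then 0.72, against -0.02 and -0.04 over all 438, and the median interaction -0.11. All 15 that were higher at 6 weeks were persistent, against 41 persistent rises among the 438, and the interaction interval was within 1.5-fold for 3 of the 25, against 241 of the 438. The 5p members lead it, such as miR-669b-5p (0.97 and 0.85), while 3p members such as miR-466f-3p (-0.53 and -0.36) were lower at 1 week. These members resemble each other in sequence and may share signal on the array, which was not tested.

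The Dlk1-Dio3 cluster had 28 measured members. Of these 14 were lower at 1 week (12.1% of all 438 were) and 12 at 6 weeks (7.31% of all), with none higher, and 8 were persistent (16 persistent falls among all 438). Its median effect was -0.39 at each week, and its interactions ran from -0.52 (miR-494-3p) to 0.72 (miR-409-3p), with 20 of 28 intervals within the 1.5-fold range (241 of all 438). Of the 9 let-7 and miR-98 guides, which restrain growth genes, 5 fell at 1 week, when 12.1% of all miRNAs were lower, and 1 at 6 weeks, near the 7.31% of all. The effect of let-7c-5p, for instance, was -0.48 and then -0.25. The median interaction of these 9 was 0.16 and 0 of 9 passed. Of the 9 miR-30 members 4 were lower at 1 week and 0 at 6 weeks, beside the same shares of 12.1% and 7.31%. Their median effects were -0.34 and -0.30, and 8 of 9 intervals lay within 1.5-fold (241 of all 438). The 1.5-fold bound was wider than the median effects of the Dlk1-Dio3 and miR-30 lists. Intervals within it thus do not show that those effects kept their size. miR-30c-5p, for example, was at -0.54 and -0.34.

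The miR-15/16 family, which restrains cell cycle genes, showed its guide and opposite arms apart. The interaction was negative for all 6 guides (-0.31 to -0.04), or 5 of 6 under quantile normalization or 75th percentile centring. Over all miRNAs 264 of 438 interactions were negative, or 221 after quantile normalization. At 6 weeks 2 of the 6 were lower, miR-15a-5p (-0.55) and miR-15b-5p (-0.54), when 7.31% of all were, with 0 passing at 1 week or for the interaction. The 4 opposite arms measured were higher at 1 week in 4 cases (15.8% of all miRNAs) and at 6 weeks in 3 (9.59% of all). Their median effects were 0.56 and 0.51, and all 4 intervals lay within 1.5-fold, a bound wider than either median. Of these arms miR-195a-3p was at 0.80 and 0.77. For the 8 measured members of the miR-17-92 group 7 interactions were negative (264 of all 438), with a median of -0.17 against -0.04 over all, and none passed at either week. For the 5 measured miR-181 members 2 were lower at 1 week (12.1% of all) and 0 at 6 weeks (7.31% of all), and the median interaction was 0.28.

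The cartilage-enriched list (miR-140 and miR-455, 4 measured) had 1 member lower at 1 week, miR-455-5p (-0.40), when 12.1% of all were, and 0 at 6 weeks (-0.08). miR-455-3p was at -0.46 and -0.02, miR-140-5p at -0.27 and -0.30 and miR-140-3p at -0.21 and -0.34, none past the threshold. The 5 inflammation-induced miRNAs measured, which rise with NF-kappa B signalling or tissue repair, had 0 calls at either week; miR-21a-5p was at 0.80 and 0.65 with an interaction interval of -1.28 to 0.98. Of the 4 muscle miRNAs miR-206-3p passed at both weeks, while miR-1a-3p, miR-133a-3p and miR-133b-3p were at -0.97, -0.73 and -0.78 at 1 week and at -0.06, 0.04 and 0.05 at 6 weeks, none past the threshold. Their readings followed single pools: miR-133b-3p read 7.48 in a sham pool at 1 week and 7.87 in a DMM pool at 6 weeks, against 5.53 to 7.00 on the other arrays. The endothelial miR-126a-3p was at 0.09 and -0.74, neither past the threshold. Of the 5 mesenchymal miRNAs measured 1 was higher at 1 week, miR-214-5p (0.53), when 15.8% of all were, and 0 at 6 weeks. It was dimmer than the median level. The median effect of the 5 was -0.23 at 1 week and -0.19 at 6 weeks, with 0 lower past the threshold at either week. Their summed level ranged from 11.23 to 11.35 in sham and from 10.76 to 11.32 in DMM at 1 week. At 6 weeks it ranged from 11.28 to 11.51 and from 10.49 to 11.24.

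**Figure D5:**
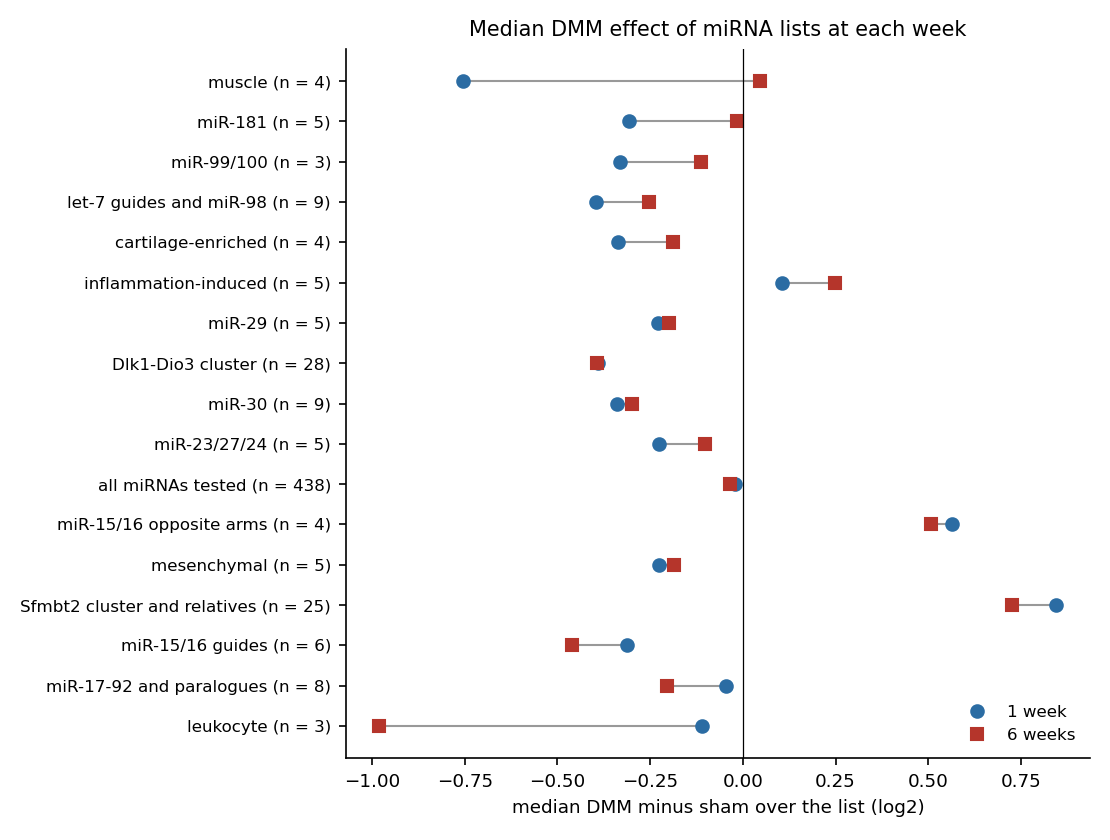
Circles and squares give the median DMM minus sham difference (log2) of each list with 3 or more measured miRNAs at 1 week and at 6 weeks. The Sfmbt2 list has medians of 0.85 and 0.72 and the Dlk1-Dio3 list -0.39 at each week, while the leukocyte list, of 3 miRNAs, goes from -0.11 to -0.98.

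The same interaction was computed in the subchondral bone. It gave 0 of 490 miRNAs (0%) past the threshold by limma, with 1 (0.204%) at an unadjusted p under 0.05. The DMM effect in bone gave 0 calls at 1 week, with 3 (0.612%) at an unadjusted p under 0.05, and 0 at 6 weeks, with 2 (0.408%). The spread between bone arrays was wide for many miRNAs. In sham bone at 1 week the SD was 0.83 for miR-1187 and 0.82 for miR-574-5p, though 0.085 for miR-5099. The median SD within cartilage groups was 0.172. The 0 calls in bone thus do not show that DMM had no effect there. In bone miR-5099 ranged from 6.14 to 6.33 in sham and from 6.10 to 6.23 in DMM at 1 week, and from 5.89 to 6.62 and from 5.62 to 6.39 at 6 weeks, so the groups overlapped at both weeks. Its bone interaction was -0.21 ± 0.26 (SE). The difference of the interaction between cartilage and bone was tested over the 359 miRNAs measured on all 28 arrays, and 0 passed (0%), with 3 (0.836%) at an unadjusted p under 0.05. For miR-5099 that difference was 1.27 ± 0.34 (SE, unadjusted p = 0.0011, adjusted p = 0.383); without bone DMM replicate 3 at 6 weeks it was 1.43 and passed (adjusted p = 0.0468).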

How the data were processed

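The authors deposited 1 table of log2 signals of Agilent mouse miRNA arrays (1 colour, Cyanine 3), which were not rescaled here; limma 3.20.9 is the tool in the submitters' processing notes, and no source used here gives the background correction or scaling. The 12 cartilage arrays and the 438 rows complete on them went into a group-means fit (limma 3.58.1, R 4.3.3; eBayes), with Benjamini-Hochberg adjustment over all rows, a threshold of 0.05 and intervals of 95%. The method was tested on simulated data. Bone arrays (490 rows) and both tissues together (359 rows) were fitted alike. Groups came from the sample titles. The miRNAs named were those with the smallest interaction p (5 a direction), all candidates, the 12 largest persistent effects a direction by mean over both weeks, the 10 closest between weeks, and list members. The members and lists were chosen with earlier results of these data known. Alternatives were quantile normalization, 75th percentile centring, a filter on rows dimmer than the median, a trended robust prior, array weights, a replicate block and leaving out each array. Array number, 3 a group, limits the precision. Of 438 miRNAs 364 matched a RefSeq sequence by name. The replicate numbers of the groups were checked and did not pair the samples (3 of 18 same-number pairs correlated over 0.1).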

Additional observations from a re-analysis of the deposited data

How the results depend on the processing

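The mean DMM effect over both weeks of the 24 persistent miRNAs named as largest was past the threshold in every fit that tested it (288 tests with an array left out and 137 under other settings). The 24 were chosen from these arrays by that same effect, so this result is not separate evidence. Fewer stayed persistent: 11 of the 24 without DMM replicate 2 or sham replicate 2 at 6 weeks, and 15 with the replicate block. The most that stayed so with an array left out was 23. The count of miRNAs past the threshold for the interaction was 1, miR-5099, after quantile normalization, without the dimmer rows (below the median level) and with array weights, each giving 1 late effect, and 0 to 1 with each array left out (0 to 1 late, 0 fading). Quantile normalization gave 35 DMM changes between weeks and 1 late candidate, and the interaction of miR-1224-5p turned to 0.0086. Centring on the 75th percentile gave 34 DMM changes and 27 persistent falls. Without the dimmer rows, 219 miRNAs were tested; 54 passed at 1 week, 40 at 6 weeks, 110 for the mean effect, 0 for the sham change and 6 for the DMM change, with 23 persistent rises, 4 persistent falls, 4 fading and 2 late candidates. The trended robust prior gave 2 late candidates. Array weights gave 189 at 6 weeks, 68 sham changes, 32 DMM changes, 70 persistent rises, 64 persistent falls, 9 late candidates and a slope of 0.904. A fit with array weights gave a convergence warning, and values with array weights stand as an alternative only. The fit with the replicate number as a block gave 43 at 6 weeks, 0 sham changes, 7 DMM changes, 3 persistent falls and 2 late candidates, with 33 of the 57 persistent miRNAs retained; the numbers do not pair the samples (r from -0.487 to 0.443).

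With each array left out in turn, the counts ranged from 42 to 141 at 1 week, 20 to 166 at 6 weeks, 171 to 241 for the mean effect, 0 to 9 for the sham change, 6 to 30 for the DMM change, 15 to 61 persistent rises, 0 to 42 persistent falls, 5 to 11 fading candidates and 1 to 12 late candidates. The lowest count at 6 weeks came without DMM replicate 2 at 6 weeks and the highest without sham replicate 1 at 6 weeks; the lowest at 1 week came without DMM replicate 3 at 1 week. The correlation of effects ranged from 0.811 to 0.902 and the slope from 0.677 to 0.955. Bone stayed at 0, and cartilage minus bone ranged from 0 to 1. The interactions ranged from -0.37 to 0.11 for miR-32-3p, -0.36 to 0.032 for miR-669l-5p, -0.34 to 0.070 for miR-466m-5p, -0.28 to 0.10 for miR-669e-5p and -0.32 to 0.11 for miR-672-5p. The cause of these differences was not tested.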
